A study of Mus musculus with 8 samples.

Results

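The annexins described here were *Anxa1*, *Anxa2*, *Anxa3*, *Anxa4*, *Anxa5*, *Anxa6*, *Anxa7*, *Anxa9* and *Anxa11*, 9 of the 19751 genes to which probes of the array could be assigned. They were taken by name, through the RefSeq accession of each probe, and were represented by 12 probes. RNA came from AtT20 cells, a line of mouse pituitary corticotroph tumor cells that secretes ACTH. In 4 samples the cells were kept for 48 hr without the drug (control), and in 4 samples they received 10 μM HX630, an agonist of the retinoid X receptor (RXR), for the same time. Both groups were kept in medium with little, stripped serum. Each sample was hybridized to one single-color Agilent mouse array. A signal is the log2 of the processed spot intensity minus the 75th percentile of its array, so that a probe at that percentile has the signal 0. The labels do not say whether the samples were separate cultures, and the p-values therefore measure only the spread between these samples.

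The arrays were close to one another, with correlations of 0.994 to 0.998 within a group and 0.978 to 0.984 between groups. The 75th percentile of the intensity was 1335 to 1863 in control arrays and 1803 to 1899 in HX630 arrays, between 69.7% and 73.5% of probes were well above background, and no probe was saturated. The 2 groups lay on 2 slides, neither of which held both, so the drug, the slide and its scan cannot be told apart. All 6 corticotroph markers examined, among them *Pomc* and *Tbx19*, were well above background on all 8 arrays. The array reads RNA of a whole well, where fewer cells of a type and less RNA per cell cannot be told apart.

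Annexins are proteins that bind to phosphatidylserine and other acidic phospholipids of a membrane when calcium rises. They share a conserved core that lies on the membrane, while their amino-terminal ends differ and carry the sites for partner proteins such as members of the S100 family. They are known for organizing membranes in exocytosis, endocytosis and the repair of plasma membrane wounds, and in the pituitary annexin A1 is known as a mediator of glucocorticoid feedback on ACTH release.

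After HX630, *Anxa2* and *Anxa5* fell 4.13-fold and 3.24-fold, and *Anxa4* rose 1.52-fold. *Anxa6*, *Anxa7*, *Anxa9* and *Anxa11* did not pass the thresholds, an adjusted p under 0.01 in limma and a fold change above 1.5. *Anxa1* and *Anxa3* did not exceed background clearly on any array and were not tested. Among all 15319 genes tested, 11.2% were called down and 8.38% were called up. With 7 annexin genes tested, 2 called down and 1 called up are too few to set the family apart from that background. The median log2 fold change of the 7 was -0.42, and that of all genes was -0.03.

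The starts of the 3 genes that were called are shown here, because RXR acts at DNA sites near genes and these annexins passed both thresholds. Each window holds the 250 bases before the annotated start in RefSeq, on assembly GRCm38.p6, written 5′ to 3′ on the strand of the gene. That of *Anxa2* is chr9:69453433-69453682 on the plus strand, that of *Anxa5* is chr3:36475888-36476137 on the minus strand, and that of *Anxa4*, at the outer of its 2 listed starts, is chr6:86793585-86793834 on the minus strand. Capitals mark matches on either strand to any of 5 short motifs. These were AGGTCA, the core hexamer bound by RXR and other nuclear receptors, then TGACTCA, which is bound by the transcription factor pair Fos and Jun, ACGTG, the core of the hypoxia response element, GGGCGG, the box bound by Sp1, and TATAAA, the TATA box.
Anxa2: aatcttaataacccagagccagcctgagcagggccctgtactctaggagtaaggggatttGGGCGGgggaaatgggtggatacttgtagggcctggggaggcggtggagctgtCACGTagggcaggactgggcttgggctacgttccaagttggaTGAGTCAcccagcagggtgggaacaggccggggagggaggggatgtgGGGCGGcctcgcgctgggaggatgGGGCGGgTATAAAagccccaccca
Anxa5: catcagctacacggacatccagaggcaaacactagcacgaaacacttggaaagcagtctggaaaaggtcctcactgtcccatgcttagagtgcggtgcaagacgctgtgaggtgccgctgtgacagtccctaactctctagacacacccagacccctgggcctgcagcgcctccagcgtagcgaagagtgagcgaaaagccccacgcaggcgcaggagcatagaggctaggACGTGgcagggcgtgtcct
Anxa4: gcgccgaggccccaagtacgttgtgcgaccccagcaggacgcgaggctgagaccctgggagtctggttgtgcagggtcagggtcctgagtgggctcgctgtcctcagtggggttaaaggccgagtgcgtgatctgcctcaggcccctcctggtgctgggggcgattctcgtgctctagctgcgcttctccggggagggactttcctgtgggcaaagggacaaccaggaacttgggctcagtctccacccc
The *Anxa2* window held TATAAA beginning 17 bases before the start, GGGCGG at 24, 48 and 190 bases, TGACTCA on the opposite strand at 95 bases and ACGTG on the opposite strand at 137 bases. The *Anxa5* window held only ACGTG, at 19 bases, and the printed *Anxa4* window held none of the 5 motifs. No matches overlapped in these windows. Among all 32851 windows of this length, AGGTCA was present in 14.0%, TGACTCA in 4.46%, ACGTG in 16.6%, GGGCGG in 32.7% and TATAAA in 12.4%. AGGTCA was found in none of the 3 windows, which says only that these letters are not there. The GC content was 62.4% for *Anxa2*, 58.8% for *Anxa5* and 64.8% for *Anxa4*, against a median of 52.4% over all windows.

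*Anxa2* encodes annexin A2, which forms a complex with the S100 protein S100A10, links membranes to the actin cytoskeleton and serves as a surface receptor in plasminogen activation. Its signal was 3.15, 3.37, 3.40 and 3.33 in the 4 control arrays, and 1.31, 1.21, 1.29 and 1.26 in the 4 HX630 arrays. Every HX630 array lay below every control array, and the gap between the groups, 1.84, was many times the spread within either. The mean was 3.31 ± 0.11 in control and 1.27 ± 0.04 with HX630 (SD, n = 4 each). The log2 fold change was -2.04 (SE 0.06, limma adjusted p = 2.18e-07), which left 24.2% of the control level, with a 95% confidence interval from 22.0% to 26.7%. The two-sided exact permutation p over the 70 regroupings of the arrays was 0.0286, the smallest that 4 arrays against 4 can give. The decrease was seen before any scaling, with processed intensities from 11824 to 19706 in control and from 4261 to 4556 with HX630.

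*Anxa5* encodes annexin A5, which assembles into a lattice on membranes that expose phosphatidylserine and is used in labelled form to stain apoptotic cells. Its signal was 2.63, 2.49, 2.48 and 2.64 in control and 0.92, 0.81, 0.82 and 0.91 with HX630. The groups were again far apart, by 1.56, and the arrays of each group lay close together. The means were 2.56 ± 0.08 and 0.86 ± 0.06 (SD, n = 4 each), a log2 fold change of -1.70 (SE 0.05, limma adjusted p = 2.47e-07). *Anxa5* was left at 30.8% of control (95% confidence interval 28.3% to 33.5%). Its processed intensities were 7647 to 10468 in control and 3220 to 3557 with HX630, which also did not overlap.

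*Anxa4* encodes annexin A4, which aggregates vesicles and membranes and is abundant in secretory epithelia. It moved in the direction opposite to *Anxa2* and *Anxa5*. Its signal was 0.51, 0.66, 0.57 and 0.51 in control and 1.15, 1.16, 1.17 and 1.20 with HX630. The groups were separated by 0.49, and the HX630 arrays were nearly equal. The means were 0.56 ± 0.07 and 1.17 ± 0.02 (SD, n = 4 each), a log2 fold change of 0.61 (SE 0.04, limma adjusted p = 1.01e-05). The level was 152% of control, and its 95% confidence interval, from 142% to 163%, included the 1.5-fold threshold. Processed intensities were 1902 to 2768 in control and 3996 to 4376 with HX630.

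**Figure D1:**
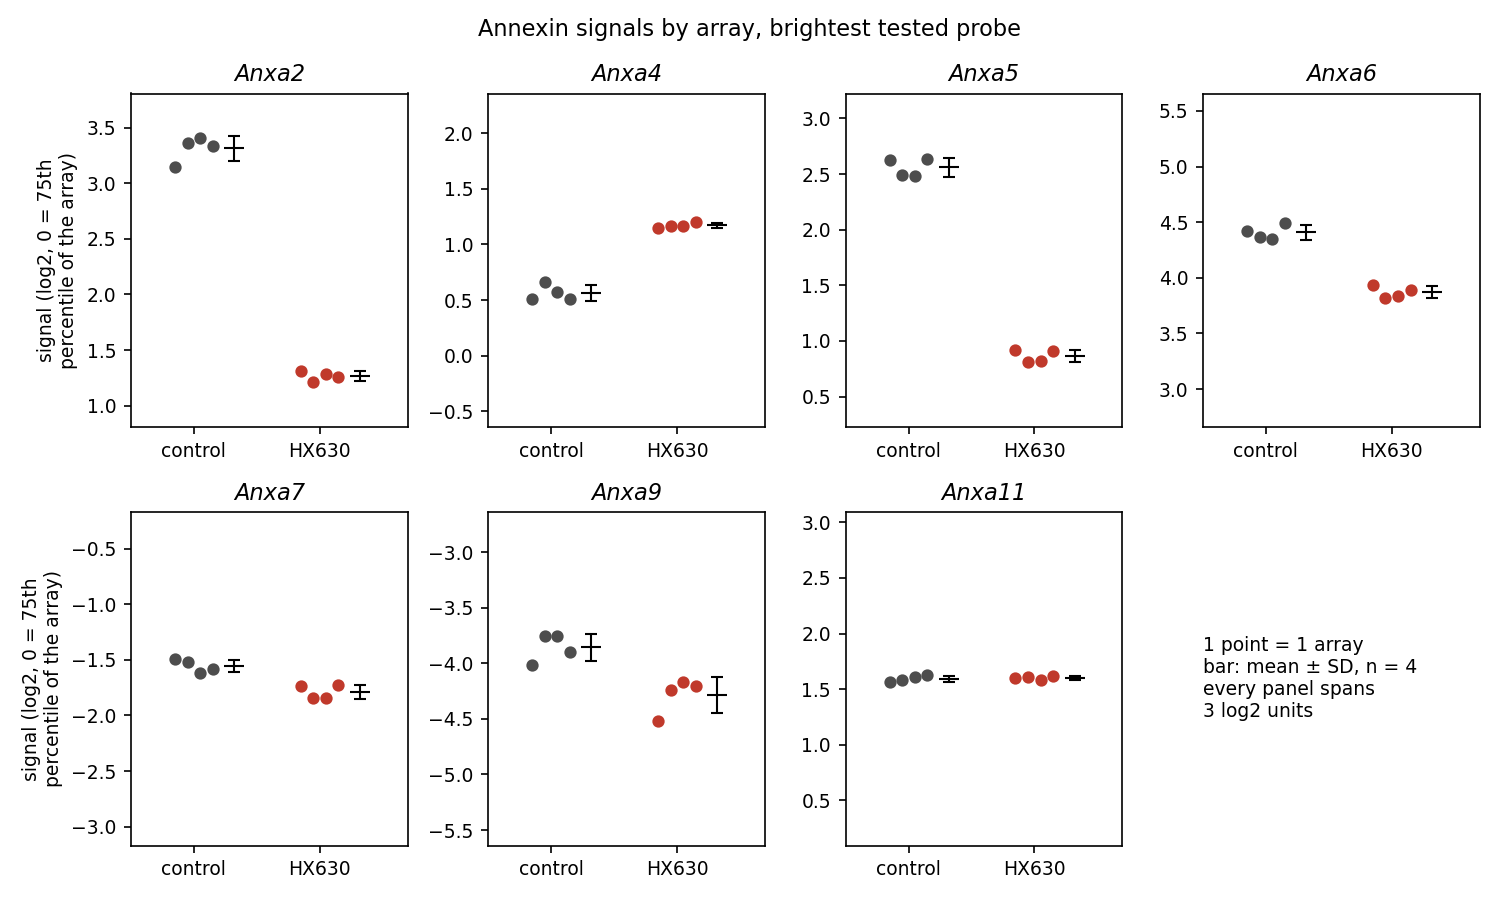
Signal of the brightest tested probe of each of the 7 tested annexin genes (y axis, log2, 0 at the 75th percentile of the array) in the 4 control and 4 HX630 arrays (x axis), 1 point per array with the mean and SD beside them. Every panel spans 3 log2 units, so distances can be compared between panels but heights cannot, and the groups overlap for *Anxa11* alone.

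*Anxa6* encodes annexin A6, which is set apart in the family by a duplicated core and is involved in endosome traffic and cholesterol distribution. Its signal was 4.42, 4.37, 4.35 and 4.49 in control and 3.94, 3.82, 3.84 and 3.89 with HX630. The groups did not overlap, with a gap of 0.42. The means were 4.41 ± 0.06 and 3.87 ± 0.05 (SD, n = 4 each), and the log2 fold change was -0.54 (SE 0.05, limma adjusted p = 2.99e-05). This is 68.9% of control (95% confidence interval 64.1% to 74.2%), or 1.45-fold lower, and *Anxa6* was not called for its fold change alone. Before scaling, the processed intensities of the groups overlapped, from 27983 to 38021 in control and from 26050 to 28120 with HX630.

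*Anxa9* encodes annexin A9, an atypical member whose core has lost calcium-binding residues. Its probe was among the dim ones, with signals of -4.02, -3.76, -3.76 and -3.90 in control and -4.52, -4.24, -4.17 and -4.20 with HX630. The groups lay apart by 0.15, about the SD of either group. The log2 fold change was -0.42 (SE 0.09, limma adjusted p = 0.00558), or 1.34-fold lower, which did not pass the fold threshold.

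*Anxa7* encodes annexin A7, or synexin, first known for fusing secretory granules of chromaffin cells, and it had 2 tested probes that went in opposite directions. The brighter probe gave -1.49, -1.52, -1.62 and -1.58 in control and -1.74, -1.85, -1.84 and -1.73 with HX630, and the dimmer probe gave -1.87, -1.95, -1.998 and -1.96 in control and -1.71, -1.73, -1.85 and -1.79 with HX630. For each probe the groups did not overlap, with the HX630 arrays lower by the brighter probe and higher by the dimmer probe. The log2 fold changes were -0.23 (SE 0.05, limma adjusted p = 0.00324) and 0.17 (SE 0.05, limma adjusted p = 0.0123), and neither passed the thresholds. Within an array, the signal of the brighter probe minus that of the dimmer probe was 0.39 ± 0.03 in control and -0.01 ± 0.08 with HX630 (SD, n = 4 each, exact permutation p = 0.0286). The array therefore gives no single direction for *Anxa7*. The mean of its probes had a log2 fold change of -0.03 (limma adjusted p = 0.518).

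*Anxa11* encodes annexin A11, which has a long amino-terminal end that binds the calcium sensor encoded by *Pdcd6* and which is known for tethering RNA granules to lysosomes. Its brighter probe gave 1.56, 1.58, 1.61 and 1.62 in control and 1.60, 1.61, 1.58 and 1.62 with HX630. The groups overlapped almost fully, with a mean of 1.59 ± 0.03 in control and 1.60 ± 0.02 with HX630 (SD, n = 4 each). The log2 fold change was 0.01 (SE 0.03, limma adjusted p = 0.846, exact permutation p = 0.714), with a 95% confidence interval from -0.06 to 0.08. This interval holds for scaling by the 75th percentile, and with spike-in scaling the log2 fold change was 0.23 (limma adjusted p = 0.00954), still under the fold threshold. The dimmer probe varied far more, from -5.03 to -3.11 with HX630, and gave a log2 fold change of 0.04 with an SE of 0.41.

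**Figure D2:**
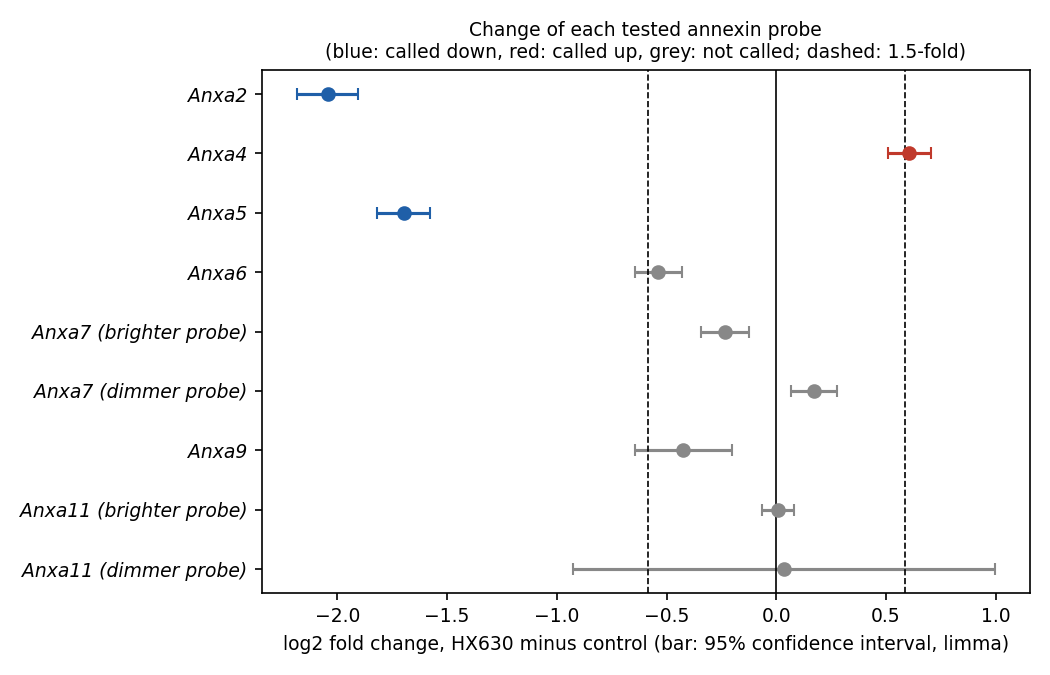
Log2 fold change, HX630 minus control (x axis), of each of the 9 tested annexin probes (y axis), with the limma estimate as a point and its 95% confidence interval as a bar, and dashed lines at a 1.5-fold change. *Anxa2* at -2.04 and *Anxa5* at -1.70 lie far from the rest, *Anxa4* at 0.61 lies just past the line, and the probes of *Anxa7* lie on opposite sides of 0.

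Annexin A1, encoded by *Anxa1*, acts on formyl peptide receptors and in the pituitary is mainly a product of folliculostellate cells. The signals of its 2 probes were between -9.19 and -7.50, and on none of the 8 arrays was either probe well above background. *Anxa3*, which encodes an annexin of myeloid cells, had signals between -8.14 and -6.94 on its single probe and was likewise not well above background. No fold change is given for either gene, and a level below this limit does not show that the RNA was absent. Of 5 folliculostellate markers, *Fxyd1*, *Aldh1a1* and the brightest probe of *Gfap* were well above background on all 8 arrays. The other *Gfap* probes were so on 0 arrays and on 1, *S100b* was so on none and *Vim* on 2.

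At an adjusted p under 0.01 without the fold threshold, 5 of the 7 tested annexin genes were lower and 1 was higher, where 27.2% of all genes were lower and 24% were higher. *Anxa7* is among the lower ones by its brighter probe only, and without it there were 4 lower and 1 higher of 6. These counts depend on the scaling. With spike-in scaling *Anxa9* (limma adjusted p = 0.141) and *Anxa7* (0.87) did not pass, and *Anxa11* passed as higher (0.00954). *Anxa9* also did not pass with quantile normalization (limma adjusted p = 0.0533) or scaling by the median (0.0491), among other settings. The groups did not overlap for 6 of the 7, 5 of them lower and 1 higher, or for 4 lower and 1 higher without *Anxa7*. Over all genes, 32.8% did not overlap and were lower, and 28.6% did not overlap and were higher. Groups of arrays that did not overlap were thus common across the array.

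The difference between 2 annexins within an array is the same whatever constant is subtracted from that array. All 21 pairs of the 7 tested genes were compared in this way by their brightest tested probes, after the values of the single genes were known. In 19 pairs the groups did not overlap (exact permutation p = 0.0286, the smallest possible, and 0.0316 after Benjamini-Hochberg adjustment over the 21 pairs). The exceptions were *Anxa6* with *Anxa9* (difference -0.11, exact permutation p = 0.371, adjusted 0.371) and *Anxa7* with *Anxa9* (difference 0.19, exact permutation p = 0.2, adjusted 0.21), whose changes could not be separated with 4 arrays a group. Without *Anxa7*, whose probes disagree, the groups did not overlap in 14 of 15 pairs. The share among pairs of other genes was not computed. Of single genes, 32.8% did not overlap and were lower, and 28.6% did not overlap and were higher. The counts of pairs therefore do not set the annexins apart. The ratio of *Anxa2* to *Anxa4* fell 6.28-fold with HX630, and that of *Anxa2* to *Anxa11* fell 4.15-fold. Even the neighbours at the low end differed, since *Anxa2* minus *Anxa5* was 0.75 ± 0.18 in control and 0.41 ± 0.05 with HX630 (SD, n = 4 each), a 1.27-fold lower ratio. The ratio of *Anxa6* to *Anxa11* was 1.46-fold lower, and that of *Anxa4* to *Anxa11* was 1.52-fold higher. In order of the change the genes ran from *Anxa2* through *Anxa5*, *Anxa6*, *Anxa9* and *Anxa11* to *Anxa4*, and the neighbours *Anxa6* and *Anxa9* could not be told apart. *Anxa7* has no settled place in this order, since its brighter probe (-0.23) lay below *Anxa11* and its dimmer probe (0.17) above it.

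Other scalings of the arrays shifted the annexin fold changes and left the annexin calls as they were. Scaled by 8 spike-in probes, the median change of all probes was 0.22 higher than with the 75th percentile, and the share of calls that were higher went from 40.1% to 68.9%. Under that scaling the log2 fold change was -1.82 for *Anxa2*, -1.48 for *Anxa5*, 0.83 for *Anxa4* and -0.32 for *Anxa6*. Of the calls, 31.8% were higher after normexp background correction, 51.6% after scaling by the median and 49.8% after quantile normalization. *Anxa11* took either sign under these scalings, from -0.04 with normexp background correction to 0.23 with the spike-in probes.

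**Figure D3:**
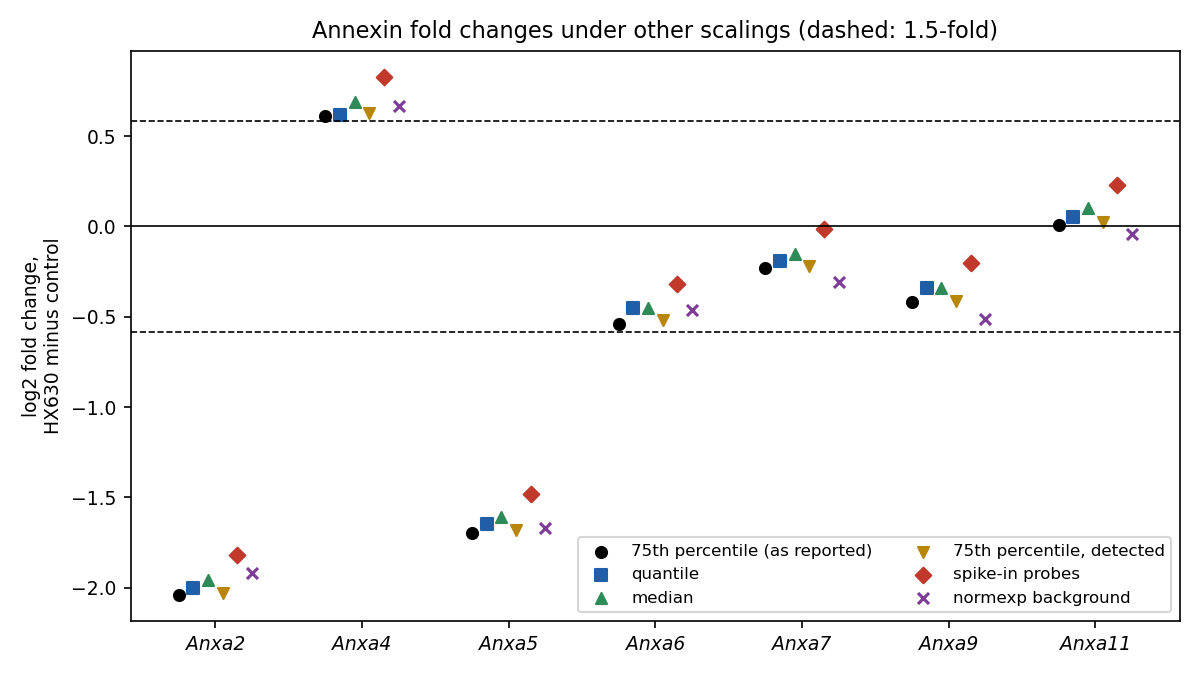
Log2 fold change, HX630 minus control (y axis), of the brightest tested probe of each tested annexin gene (x axis) under 6 ways of scaling or background correction, 1 marker for each, with dashed lines at a 1.5-fold change. *Anxa2*, *Anxa5* and *Anxa4* stay outside the lines under each of them, and *Anxa6*, *Anxa7*, *Anxa9* and *Anxa11* stay inside.

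The other annexin genes on the array were *Anxa8*, *Anxa10* and *Anxa13*, none of which was called by limma or by the methods' t-test. *Anxa10* was not well above background on any array. The brighter of the 2 probes of *Anxa8* gave -4.40 ± 0.23 in control and -4.93 ± 0.24 with HX630 (SD, n = 4 each), a log2 fold change of -0.53 (SE 0.15, limma adjusted p = 0.0172). *Anxa13* gave -5.13 ± 0.16 and -5.52 ± 0.11, a log2 fold change of -0.39 (limma adjusted p = 0.00663). Both were lower at an unadjusted p under 0.05, as were 36.4% of all genes, while 31.6% of all genes were higher at that level.

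The partner list holds genes of proteins that bind annexins or work with them. Of its 15 genes 11 were tested, and 0 were called in either direction by limma or by the methods' t-test. In limma 11.2% of all genes were called down and 8.38% up. At an unadjusted p under 0.05, 3 partner genes were lower and 2 were higher, against 36.4% and 31.6% of all genes. The median log2 fold change of the tested partner genes was -0.03, close to that of all genes. *S100a10*, the partner of *Anxa2*, was not well above background on any array, with signals between -9.35 and -8.22. The same held for *S100b*, for *Plg*, which encodes plasminogen, and for *Fpr2*, which encodes a receptor of annexin A1. The partner gene nearest to a call was *S100a6*, whose product binds annexin A11 among others, at -4.65 ± 0.21 in control and -5.23 ± 0.13 with HX630 (SD, n = 4 each, log2 fold change -0.58, limma adjusted p = 0.00265). It passed the fold threshold when control replicate 2, 3 or 4 or HX630 replicate 1, 2 or 3 was left out, with log2 fold changes from -0.63 to -0.59. *Fpr1*, which encodes a further receptor of annexin A1, had a log2 fold change of -0.60 (limma adjusted p = 0.0321) and was called with the replicate numbers as a block (limma adjusted p = 0.000567). *Pdcd6*, the calcium sensor bound by annexin A11, had a log2 fold change of -0.29 (limma adjusted p = 0.000145), and *Plgrkt*, a plasminogen receptor, one of 0.46 (limma adjusted p = 2.46e-05). With spike-in scaling *Plgrkt* was called up (0.68, limma adjusted p = 4.06e-06).

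Genes of plasma membrane repair, in which annexins take part, were examined next. Of 19 genes 14 were tested, of which 3 were called down and 0 were called up in limma. Of all genes 11.2% were called down and 8.38% were called up. At an unadjusted p under 0.05 there were 5 lower and 5 higher, where 36.4% and 31.6% of all genes were. The median log2 fold change of the 14 was -0.10. *Smpd1*, which encodes the acid sphingomyelinase released from lysosomes at wounds, fell from 4.16 ± 0.04 to 3.34 ± 0.03 (SD, n = 4 each), a log2 fold change of -0.82 (SE 0.04, limma adjusted p = 9.61e-07). *Cavin1*, a coat protein of caveolae, fell by 0.79 on the log2 scale (SE 0.05, limma adjusted p = 5.66e-06), while its partner in caveolae *Cav1* was not well above background on any array. *Syt7*, the calcium sensor of lysosome exocytosis, fell by 0.72 (SE 0.06, limma adjusted p = 2.46e-05). The ESCRT gene *Chmp4b* (log2 fold change 0.49) and *Ehd1* (0.46) were not called. With spike-in scaling both were called up (0.71 and 0.68) and *Smpd1* alone was called down, so the list had 2 up and 1 down.

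Scramblases expose phosphatidylserine, the lipid that annexins bind, and flippases return it to the inner leaflet. Of the 16 such genes reported here 10 were tested, of which 1 was called down and 0 were called up. Of all genes 11.2% were called down and 8.38% were called up. Among the 10, 9 were higher and 1 was lower, with a median log2 fold change of 0.12. At an unadjusted p under 0.05 there were 5 higher and 1 lower, where 31.6% and 36.4% of all genes were. *Tmem30a*, the subunit that flippases need to leave the endoplasmic reticulum, fell from 0.07 ± 0.06 to -0.56 ± 0.07 (SD, n = 4 each, log2 fold change -0.64, SE 0.05, limma adjusted p = 1.59e-05). The call of *Tmem30a* was lost with scaling by the median (-0.55), with the spike-in probes (-0.42) and with normexp background correction (-0.58). The scramblase family genes *Plscr3* (log2 fold change 0.57) and *Plscr1* (0.65, limma adjusted p = 0.0425) were not called. *Plscr1* was called up without control replicate 1 (0.84) and with spike-in scaling (0.87). *Plscr3* was called up without HX630 replicate 1 (0.59), with quantile normalization (0.59), with scaling by the median (0.65) and with spike-in scaling (0.79).

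Copines are a further family of proteins that bind phospholipids when calcium rises. Of 9 genes 8 were tested, with 2 called down and 1 called up, where 11.2% of all genes were called down and 8.38% up. At an unadjusted p under 0.05 there were 4 lower and 2 higher, where 36.4% and 31.6% of all genes were. The median log2 fold change of the 8 was -0.13. *Cpne7* fell from 1.11 ± 0.02 to -0.66 ± 0.06 (SD, n = 4 each), and its log2 fold change of -1.76 (SE 0.04, limma adjusted p = 9.11e-08) was between those of *Anxa2* and *Anxa5*. *Cpne4* fell by 0.69 (SE 0.09, limma adjusted p = 0.000385) and *Cpne9* rose by 0.60 (SE 0.10, limma adjusted p = 0.00152). Both were dim, and their calls were lost under several settings, among them normexp background correction, where *Cpne9* had a log2 fold change of 0.20 and *Cpne4* one of -0.68. Over the 22 alternatives *Cpne4* ranged from -0.74 to -0.42 and kept its call in 18. Without control replicate 4 *Cpne9* had 0.55, without control replicate 3 it had 0.57 and without control replicate 2 it had 0.58, all under the threshold.

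**Figure D4:**
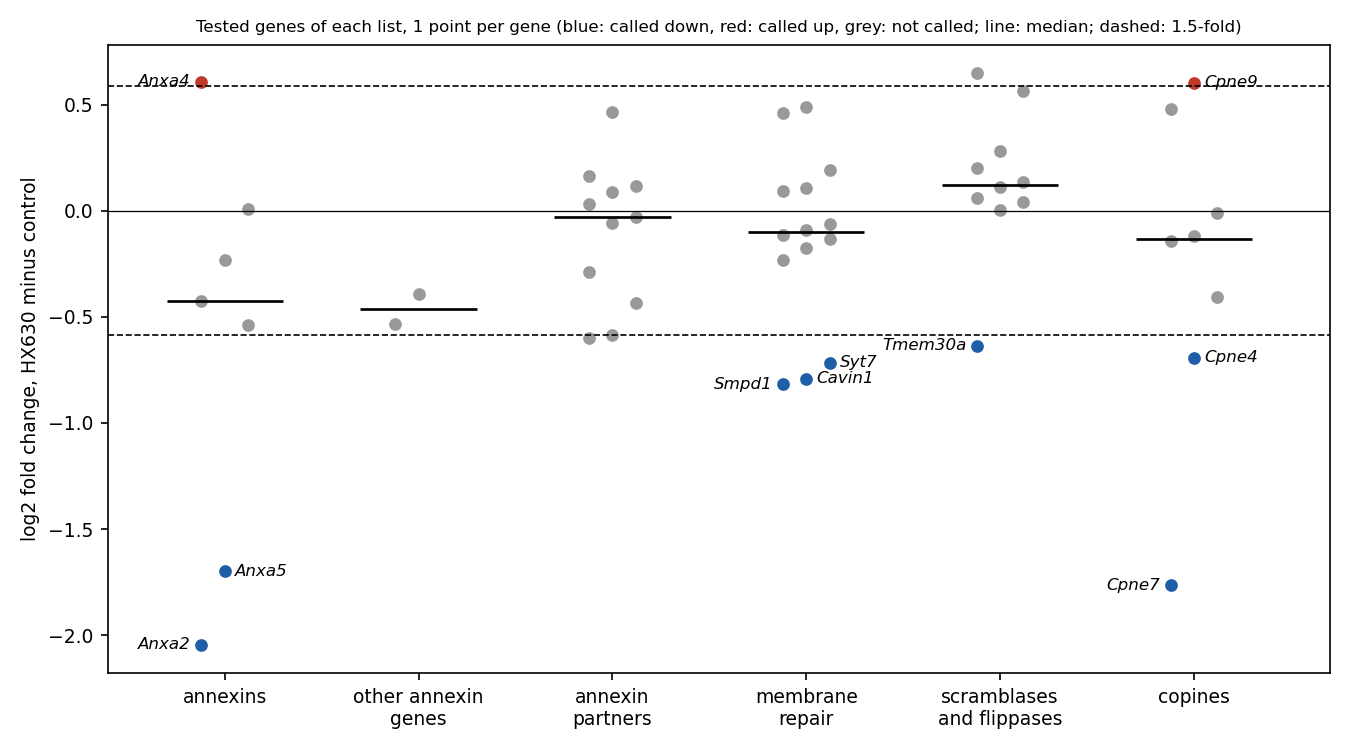
Log2 fold change, HX630 minus control (y axis), of the tested genes of 6 lists (x axis), 1 point per gene by its brightest tested probe, with called genes in color and named, the median of each list as a line and dashed lines at a 1.5-fold change. *Anxa2* at -2.04, *Cpne7* at -1.76 and *Anxa5* at -1.70 stand below all other points.

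Markers of other cells were measured beside these results, with levels summed in multiples of the 75th percentile. For 3 tested markers of other pituitary cells, of 6 listed, the sum was 0.116 to 0.238 in control and 0.154 to 0.174 with HX630. *Gh* among them was called down (log2 fold change -0.80), while *Lhb* (0.23) and *Pou1f1* (0.26) were higher and not called. *Prl* and *Tshb* were not well above background on any array. For 3 folliculostellate markers, of 5 listed, the sum was 0.838 to 1.0 in control and 0.767 to 0.778 with HX630. *Fxyd1* was at -0.33 and not called, and the dim *Gfap* was called up by its only tested probe (0.97). For 7 endothelial, fibroblast and leukocyte markers, of 8 on the array, the sum was 3.45 to 4.2 in control and 2.62 to 3.2 with HX630. This sum rests mostly on the brighter probe of *Kdr*, with a mean signal of 1.54 in control and 1.18 with HX630 (-0.36, not called). The other *Kdr* probe was far dimmer, at -6.57 and -6.62. Among these markers *Dcn* was called up (1.04), *Pecam1* (-0.59) and *Csf1r* (-0.72) were called down, and *Cdh5* was not well above background on any array. The sum of the 6 corticotroph markers was 301 to 376 in control and 218 to 228 with HX630. It rests mostly on *Pomc* (-0.45, limma adjusted p = 0.00241, not called for its fold change) and *Pcsk1*, which was called down (-2.06). *Tbx19* (-0.37, limma adjusted p = 0.000506) and *Pitx1* (-0.315, limma adjusted p = 0.000407) were lower and not called, whereas *Neurod1* (0.72) and *Crhr1* (1.11) were called up. The part of these shifts in the annexin results was not tested.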

How the data were processed

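Gene expression was measured in 8 samples of AtT20 cells. The authors deposited the scanner output of each array, made with Feature Extraction 10.7.3.1, with a processed intensity per spot after background subtraction. They also deposited a table of log2 values, whose offset from the log2 intensity was each array's 75th percentile to within 0.002. Here the 1377 control spots of 44397 and outlier spots were left out, each array's 75th percentile was subtracted from the log2 intensity and spots of a probe were averaged. Of 39429 probes, 28552 were well above background on at least 4 arrays and were tested in limma 3.58.1 (R 4.3.3), with Benjamini-Hochberg adjustment over all of them. A gene is given by its brightest tested probe. Probes were named by RefSeq accession through a table on assembly GRCm38.p6 (26055 matched, 66.1%), since probe coordinates on that build were not used here. Exact permutation tests were run in SciPy 1.17.1, and the fit was tested on simulated data. The methods name a fold change of 1.5 and a p of 0.01, and the methods' t-test was run as an alternative.

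The named genes were all annexins, up to 3 called genes of each list with the largest changes, and the 5 genes most like *Anxa2* across the arrays. Of the partner, repair and scramblase genes, *S100a6*, *Fpr1*, *Pdcd6*, *Plgrkt*, *Chmp4b*, *Ehd1*, *Plscr1*, *Plscr3* and those not above background were named after their values were seen. Of the listed genes, 1 is not reported here and is left out of the counts of its list. The members and lists were chosen with earlier results of these data known. The number of arrays limits the precision.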

Additional observations from a re-analysis of the deposited data

Results flagged for a closer look

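Among 32 groups of 4 arrays examined, for the tested annexins and the called genes of the lists, 2 held an array that stood apart from the other three, where chance gives about 1 in 20, or 1.6. For *Cavin1*, control replicate 4 had a signal of -0.98 and the other control arrays all had -1.13, so that its distance to the nearest of them made up 0.981 of the whole spread, above Dixon's 95% critical value. For *Cpne9*, control replicate 1 had -4.91 and the others -5.39 to -5.31, or 0.839 of the spread. No annexin had such an array.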

How the results depend on the processing

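*Anxa2*, *Anxa5* and *Anxa4* kept their direction and their call under all 22 alternatives, with log2 fold changes from -2.10 to -1.82, from -1.72 to -1.48 and from 0.59 to 0.83. *Anxa6* (-0.56 to -0.32), *Anxa9* (-0.51 to -0.20) and the brighter probe of *Anxa7* (-0.31 to -0.01) kept their direction and were called under none of them, and the dimmer probe of *Anxa7* was higher throughout (0.11 to 0.39). *Anxa11* turned to -0.0428 with normexp background correction and lay between -0.0029 and 0.018 when 1 array was left out. Its dimmer probe turned to -0.14 with normexp background correction, -0.08 without control replicate 3 and -0.40 without HX630 replicate 1. The highest value of that probe was 0.25 with 1 array left out and 0.26 over all alternatives. Without a fold threshold 5 annexin genes, by 5 probes, were called down, because the criterion is wider. Over all probes 3184 were called down and 2131 up. With spike-in scaling there were 1888 down and 4180 up, with normexp background correction 1355 up, with no fold threshold 7245 down and 5763 up, and with 1 array left out 2879 to 3369 down and 1944 to 2568 up. The cause of the shifts with scaling was not tested. The authors' log2 values gave 3182 down and 2131 up, and the methods' t-test 3127 and 2110, or 2883 and 1981 after Benjamini-Hochberg adjustment. The deviations of same-numbered samples correlated at 0.523, -0.01, 0.242 and 0.381. As 1 of the 4 pairs did not deviate together and no label names a shared batch, the numbers were not taken as pairs. With a replicate block 3345 probes were called down and 2210 up, with 2 annexin genes down and 1 up. With spike-in scaling *Cavin1* (-0.57) and *Syt7* (-0.49) lost their calls, and without HX630 replicate 1 *Anxa8* was called (-0.65). Genes near or below background, such as *Anxa1*, *Anxa3* and *S100a10*, have no fold change at this sensitivity.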

Other observations

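The genes whose signal followed *Anxa2* most closely over the 8 arrays, among 18694 probes, were *Alkbh5*, an RNA demethylase (r = 0.9998), *Tmco4* (0.9997), *Prlr*, the prolactin receptor (0.9996), *Stc2*, a secreted glycoprotein (0.9995), and *Ttyh1* (0.9995). These correlations are a description, since the points share their arrays and rest on the difference between the groups. Their own log2 fold changes with HX630 were -0.92 for *Alkbh5*, -1.10 for *Tmco4*, -2.46 for *Prlr*, -1.87 for *Stc2* and -3.09 for *Ttyh1* (limma adjusted p from 1.04e-07 to 8.68e-07). The control mean of *Prlr* was 1.29 and the HX630 mean was -1.17, and for *Stc2* the means were 2.09 and 0.22.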
